A study of Homo sapiens with 6 samples.

Results

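The 8 genes described here encode isoforms of adenylyl cyclase, the enzyme that makes cAMP from ATP. They are ADCY1, ADCY2, ADCY3, ADCY5, ADCY6, ADCY7, ADCY8 and ADCY9, taken by gene name from the 19823 genes of the deposited expression table, and all 8 were measured well enough to be tested. ADCY4 and ADCY10 were not analysed here. Transcript levels came from poly(A) RNA-seq of 6 samples of iNeurons, glutamatergic excitatory neurons made from the human stem cell line WTc11, which is of induced pluripotent origin. Of these samples 3 were untreated and 3 had received isoproterenol, an agonist of β-adrenergic receptors. All 6 samples, the untreated ones included, carried an RBM12 knockdown made by CRISPR interference, in which a catalytically dead Cas9 fused to a repressor silences the promoter named by its guide. According to the study's methods the stem cell line was clonal, its conversion to neurons was driven by doxycycline-inducible NGN2, and these neurons, unlike other neurons of the study, held only native β2-adrenergic receptors. The dose of isoproterenol and the time of exposure are not given in the labels, and whether replicates came from separate cultures is not given either, so p-values measure the spread between these samples, which may be technical.

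Membrane adenylyl cyclases sit between receptors and cAMP. Receptors coupled to the G protein subunit Gαs switch on all of the membrane isoforms, and the isoforms differ in what else they read: calcium with calmodulin stimulates some, calcium and Gαi inhibit others, and Gβγ subunits raise the activity of a further group. In neurons, this lets cAMP follow both neuromodulators such as noradrenaline and the calcium that enters with electrical activity. Cyclic AMP then acts on protein kinase A, on Epac exchange factors and on cyclic nucleotide-gated channels, and phosphodiesterases break it down.

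The isoforms are relatives in sequence, so it was first asked whether reads could be told apart between them. In the coding sequences, the closest pair was ADCY5 and ADCY6, at 76.22% identical aligned bases, followed by ADCY2 and ADCY7 at 69.34% and ADCY1 and ADCY5 at 69.22%. No stretch of 50 bases in any annotated transcript of one member (0 shared stretches, GENCODE release 44) occurred in another member. Among the 7 members other than ADCY8, the longest identical run between coding sequences was 29 bases long and was shared by ADCY1 and ADCY6. Outside the coding sequences, identical runs shorter than 50 bases were not searched for. The run is shown here because it is the place where these coding sequences come closest to sharing a read. The identical run is in capitals, with 30 bases on each side in lower case. Positions are counted from 1 at the first base of the start codon, which gives 1066 to 1154 in ADCY1 and 1294 to 1382 in ADCY6.
ADCY1: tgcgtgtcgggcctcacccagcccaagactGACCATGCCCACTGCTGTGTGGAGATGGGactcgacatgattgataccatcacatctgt
ADCY6: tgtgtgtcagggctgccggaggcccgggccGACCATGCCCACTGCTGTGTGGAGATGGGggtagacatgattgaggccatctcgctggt
Outside the capitals, 38 of the 60 flanking bases were identical, so a fragment that reaches past the run meets bases that differ between both genes.

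Promoter sequence is shown for 3 members because cAMP signaling acts on transcription largely through CREB, a factor that binds the cAMP response element. RefSeq windows of 300 bases (GRCh38.p14), from 250 bases before to 50 bases after a transcription start, were at hand for 5 members (ADCY1, ADCY2, ADCY3, ADCY5 and ADCY7; 8 windows in all). The full element, TGACGTCA, was in 0 of the 8 windows and in 1.848% of 35116 human promoter windows of the same length. Its core, TGACG, was searched on both strands and every full element also contains it. The core lay in 4 of the 8 windows, those of ADCY1 (the same copy from both annotated starts), ADCY2 and 1 of the starts of ADCY3, and in 24.55% of all windows. The 250 bases before the start are printed 5′ to 3′ on the strand of the gene, with the core in capitals (CGTCA is TGACG read on the other strand). They cover chr7:45573890-45574139 on the plus strand for ADCY1, chr5:7395888-7396137 on the plus strand for ADCY2 and chr3:123449091-123449340 on the minus strand for ADCY5.
ADCY1: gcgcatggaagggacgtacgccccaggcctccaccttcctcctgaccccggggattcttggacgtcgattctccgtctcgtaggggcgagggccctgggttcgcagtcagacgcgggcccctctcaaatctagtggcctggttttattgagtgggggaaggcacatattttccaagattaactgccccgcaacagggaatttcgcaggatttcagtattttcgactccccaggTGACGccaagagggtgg
ADCY2: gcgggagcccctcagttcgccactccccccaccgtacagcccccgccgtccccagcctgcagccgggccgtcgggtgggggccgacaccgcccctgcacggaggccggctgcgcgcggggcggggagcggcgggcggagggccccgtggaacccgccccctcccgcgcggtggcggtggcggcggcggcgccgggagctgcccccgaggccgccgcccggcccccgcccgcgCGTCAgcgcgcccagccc
ADCY5: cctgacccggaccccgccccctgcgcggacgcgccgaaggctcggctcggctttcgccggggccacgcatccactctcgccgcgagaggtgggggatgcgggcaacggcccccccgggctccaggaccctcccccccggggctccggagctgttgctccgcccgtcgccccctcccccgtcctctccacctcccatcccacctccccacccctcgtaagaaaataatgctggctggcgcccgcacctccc
The core began at position -17 from the start in ADCY1 and at -18 in ADCY2. A match of these letters is a description of the sequence, and its use by any factor was not measured.

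Values below are normalized counts, the reads of a gene divided by a size factor that sets the samples to a common depth. Each sample held between 18116816 and 21488793 reads on genes. The neurons expressed the glutamatergic markers SLC17A6 (13442 normalized counts on average in untreated samples) and SLC17A7 (3055), and the general neuronal marker MAP2 (33644). All 10 genes listed for glutamatergic neurons, some of which mark neurons of any kind, were in the table. TUBB3, however, was at only 77.7, with 21.34% of its exon bases shared on the same strand with other genes. Markers of other cells were low: the 3 inhibitory markers summed to between 55.3 and 60.0 normalized counts in untreated and between 66.9 and 79.0 in isoproterenol samples, the 2 of 5 listed astrocyte markers in the table (AQP4 and S100B) to 160 to 175 and 134 to 157, the 3 of 5 pluripotency markers in the table to 19.4 to 19.8 and 15.4 to 28.8, and SOX2 was at 0 in all untreated samples. Of the 4 listed proliferation markers, 1 was measured, CCNB1. It was at 112 to 147 normalized counts in untreated and at 123 to 145 in isoproterenol samples, above TUBB3. Of the 5 listed microglia markers, 0 were among the measured genes. The part of other cells in the results was not tested. The knocked-down gene, RBM12, was at 244, 279 and 267 in untreated and at 195, 238 and 233 in isoproterenol samples, and the extent of its depletion could not be measured, since libraries with a control guide were not analysed here. As a check of the treatment, all 8 listed immediate early genes were higher with isoproterenol and 1 of them, NR4A3, passed FDR 0.05 (limma adjusted p 0.0324), while 7 of the 8 rose past it with the replicate number as a block.

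Levels of the isoforms were compared per kilobase of exon, since a longer transcript yields more fragments. ADCY1, a calcium-stimulated cyclase known from hippocampus and cortex, was the most abundant at 411.7 ± 26.4 normalized counts per kilobase (SD over all 6 samples), above 88.6% of all tested genes. ADCY5, the main cyclase of the striatum, followed at 308.5 ± 8.2, and its close relative ADCY6 at 206.8 ± 12.03. A middle group held ADCY8, the other classical calcium-stimulated cyclase, at 167.5 ± 17.6, ADCY3, known from olfactory signaling and primary cilia, at 152.9 ± 6.7, and ADCY7, a Gβγ-stimulated cyclase, at 148.8 ± 4.4. The lowest were ADCY9, the isoform least sensitive to forskolin, at 104.0 ± 3.1, and ADCY2, another Gβγ-stimulated isoform, at 47.1 ± 1.7. ADCY1 therefore stood 8.75 times above ADCY2 per kilobase of all annotated exon bases, 5.43 times per kilobase of the longest transcript and 6.76 times per kilobase of the longest coding sequence. The median over all tested genes was 61.0 (quartiles 15.7 and 188), so that ADCY2 alone lay below it and ADCY1, ADCY5 and ADCY6 lay above the upper quartile.

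Within each sample, neighbours in this order were compared by a two-sided exact sign-flip test of the log2 ratio over the 6 samples, adjusted by Benjamini-Hochberg over 7 neighbouring pairs. The design cannot give a p below 0.0313, the value reached when all 6 samples go one way. In 5 of the 7 pairs they did (exact adjusted p = 0.0438 each): ADCY1 exceeded ADCY5 1.33 times, ADCY5 exceeded ADCY6 1.49 times, ADCY6 exceeded ADCY8 1.24 times, ADCY7 exceeded ADCY9 1.43 times and ADCY9 exceeded ADCY2 2.21 times. The order came from the same 6 samples, so the pairs and their directions were not set beforehand. These p-values therefore describe how steadily a step held across samples and do not test the order itself. That test also takes the 6 samples as independent. Over the 3 means of same-numbered samples, an alternative chosen after the values were seen, 0 of the 7 pairs passed, since 3 values cannot give an exact p below 0.25; the same 5 pairs kept their direction in all 3 means. The order of the middle group was not resolved. ADCY8 was above ADCY3 in 5 of 6 samples (1.09 times, exact adjusted p = 0.219), and ADCY3 was above ADCY7 in 4 of 6 (1.03 times, exact p = 0.5). Of the 28 possible pairs of members, the ranges over samples overlapped in 3, all within this middle group. These levels depend on the length used. Per kilobase of the longest coding sequence, ADCY8 moved to rank 8, ADCY7 to rank 4 and ADCY9 and ADCY2 took ranks 6 and 7, while ADCY1, ADCY5 and ADCY6 stayed at ranks 1, 2 and 3, as they did with no length correction. The size of a step moved as well: ADCY1 exceeded ADCY5 1.06 times by longest transcript and 2.32 times by coding length, ADCY6 exceeded ADCY8 1.61 and 2.52 times, and ADCY9 exceeded ADCY2 1.65 and 1.07 times. The sign-flip tests and the overlaps of ranges were computed per kilobase of all annotated exon bases only. With another length a step such as that from ADCY1 to ADCY5 need not hold in all 6 samples, which was not tested.

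**Figure D1:**
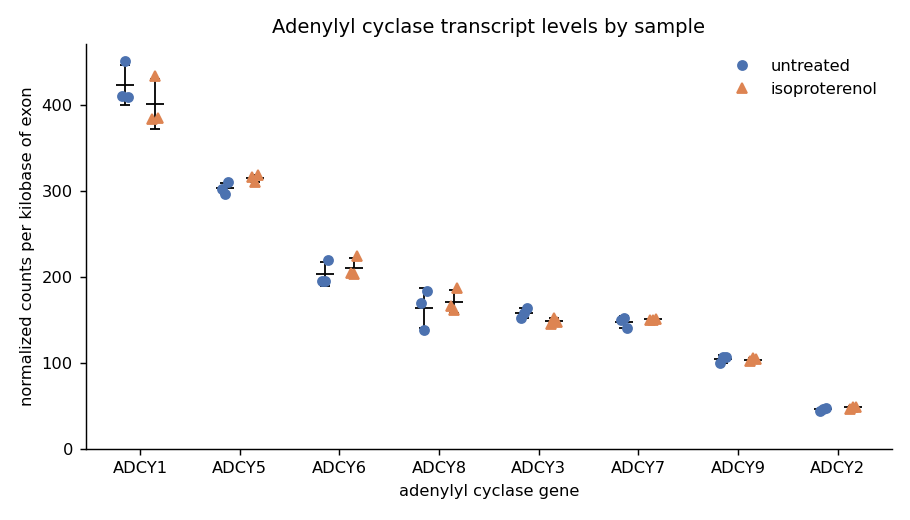
Normalized counts per kilobase of exon for the 8 adenylyl cyclase genes, with each sample as a point (circles, untreated; triangles, isoproterenol) and the mean and SD of 3 samples as bars. ADCY1 lies between 383 and 450 in every sample, ADCY2 between 44.2 and 49.1, and the points of ADCY8, ADCY3 and ADCY7 overlap.

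Summed by regulation, the calcium-stimulated isoforms (ADCY1, ADCY3 and ADCY8) made up 45.9% to 48.3% of the summed signal of the 8 members per kilobase in a sample. The isoforms inhibited by calcium and Gαi (ADCY5 and ADCY6) made up 31.9% to 34.6%. The Gβγ-stimulated isoforms (ADCY2 and ADCY7) held 11.9% to 13.0%, and ADCY9 held 6.52% to 6.92%. These shares were not computed with other lengths, and the levels behind them depend on the length used. Transcript shares say nothing of protein or of enzyme activity, which were not measured.

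Isoproterenol was then compared with untreated samples, to ask whether stimulation of the receptor was followed by a change in the transcripts of the enzyme it works through. None of the 8 members (0) passed FDR 0.05 in limma's moderated test, adjusted by Benjamini-Hochberg over all 18130 genes tested, and 0 reached p under 0.05 before adjustment. Over all tested genes 3 passed (0.0165%), and 1393 were under 0.05 before adjustment (7.68%). The differences were small: 5 members were higher and 3 lower with isoproterenol, and the median log2 fold change was 0.04, against 0.0015 over all genes. In absolute size the median was 0.058 for the members and 0.087 for all genes. These medians were not matched for level. The members had at least 622 reads in each sample, while the filter asked only for more than 5 reads in at least 4 samples. The 95% intervals of all 8 log2 fold changes held 0 and lay inside ±0.5, the fold limit the study set for a receptor target, with -0.21 (ADCY3) and 0.27 (ADCY8) as the outermost bounds. Changes of a few percent in size thus lay inside the interval of every member, and changes as large as that limit lay outside. In a bulk sample, fewer cells of a type and less RNA per cell cannot be told apart.

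The labels number the samples of both groups 1 to 3, and same-numbered samples deviated together across genes, so each change was also read within these 3 pairs. Fitting the replicate number as a block raised the number of genes past FDR 0.05 from 3 to 885 (4.88%; limma), and 0 of the 8 members were among them. With edgeR's quasi-likelihood test on recovered reads and the same block, 977 genes passed (5.39%), and 1 member did, ADCY1. The isoproterenol value lay on the same side of the untreated value in all 3 pairs for 5 of the 8 members, upward for ADCY2, ADCY5 and ADCY6 and downward for ADCY1 and ADCY3. The same held for 36.1% of all tested genes. For 1 member, ADCY5, the values of both groups did not overlap, against 12.9% of all tested genes.

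**Figure D2:**
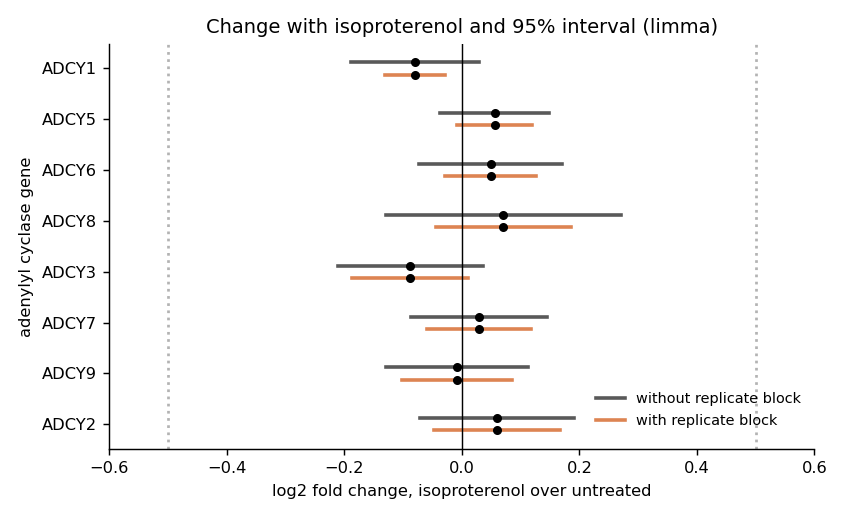
Log2 fold change of each cyclase gene, isoproterenol over untreated, with 95% intervals from limma without (grey) and with (orange) the replicate block, and dotted lines at ±0.5. Every grey interval crosses 0, and with the block 7 of the 8 intervals still cross it, the exception being ADCY1.

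ADCY1 (ENSG00000164742) lies on chromosome 7 from 45574140 to 45723116 on the plus strand (GRCh38), in 20 exons of its canonical transcript. Normalized counts of ADCY1 were 5725, 6286 and 5708 in the untreated samples and 5353, 6055 and 5375 in the isoproterenol samples, in the order of their replicate numbers, as for every gene below. Replicate 2 was the highest of each group, and the untreated and isoproterenol values overlapped through it. The means were 5906 ± 329 and 5594 ± 399 (SD, n = 3), a log2 fold change of -0.08 (SE 0.052, 95% interval -0.19 to 0.03), which did not pass the test (limma adjusted p 0.759). The difference pointed down in each pair, by log2 ratios of -0.10, -0.05 and -0.09. With the replicate block the interval narrowed to -0.13 to -0.03, and the adjusted p was 0.0519 in limma and 0.0305 in edgeR. DESeq2 with the same block gave an adjusted p of 0.650, so the call of ADCY1 as lower with isoproterenol rested on the tool and on the pairing, for a difference in means of -5.28%. Leaving out untreated replicate 2 gave a log2 fold change of -0.03, and leaving out isoproterenol replicate 2 gave -0.14. Each sample held at least 5240 reads of ADCY1.

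ADCY8 (ENSG00000155897; chromosome 8, 130780301 to 131040909, minus strand), which like ADCY1 links calcium entry to cAMP, had the fewest reads of the 8, from 622 to 808 per sample. It was at 754, 613 and 817 normalized counts in untreated and at 735, 717 and 829 in isoproterenol samples. Untreated replicate 2 was the lowest value and replicate 3 the highest of each group, and the groups overlapped. The log2 fold change was 0.07 (SE 0.094, 95% interval -0.13 to 0.27; limma adjusted p 0.903), and it was -0.048 without untreated replicate 2 and 0.16 without untreated replicate 3. The pairs gave -0.04, 0.23 and 0.02, so that pair 2 carried most of the difference.

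ADCY3 (ENSG00000138031; chromosome 2, 24819169 to 24920237, minus strand) had the largest difference in size among the members. Its values were 977, 1020 and 1054 in untreated and 937, 980 and 953 in isoproterenol samples. The isoproterenol values were the lower ones in each pair, but isoproterenol replicate 2 lay just above untreated replicate 1, so the groups overlapped. The log2 fold change was -0.09 (SE 0.059, 95% interval -0.21 to 0.04; limma adjusted p 0.768, and 0.394 with the block), with pair values of -0.06, -0.06 and -0.15. On the opposite strand, exons of CENPO share 1488 of the exon bases of ADCY3 (24.36% with a further antisense RNA). Whether the counting used the strand of the reads is not given in the sources used here. Without the strand, reads within the shared bases cannot be assigned to either gene by position. CENPO itself was at 401, 363 and 414 in untreated and at 421, 421 and 435 in isoproterenol samples (log2 fold change 0.12, limma adjusted p 0.777), opposite in sign to ADCY3.

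ADCY5 and ADCY6, both inhibited by calcium and by Gαi, were higher with isoproterenol in every pair. ADCY5 (ENSG00000173175; chromosome 3, 123282296 to 123449090, minus strand) was at 2785, 2730 and 2853 in untreated and at 2912, 2857 and 2928 in isoproterenol samples. Its lowest isoproterenol value lay just above its highest untreated value, a gap smaller than the spread within either group. The means were 2789 ± 61.8 and 2899 ± 37.2 (SD, n = 3), a difference of 3.92% (95% interval -2.56% to 10.8%), and the log2 fold change of 0.06 (SE 0.044) did not pass (limma adjusted p 0.804, and 0.408 with the block). In the pairs it was 0.06, 0.07 and 0.04.

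ADCY6 (ENSG00000174233; chromosome 12, 48766194 to 48789089, minus strand), the more widely expressed relative of ADCY5, was at 1652, 1654 and 1857 in untreated and at 1729, 1717 and 1892 in isoproterenol samples. Replicate 3 was high in both groups, and this shared offset was larger than any difference within a pair. The log2 fold change was 0.05 (SE 0.058, 95% interval -0.07 to 0.17; limma adjusted p 0.886), with 0.07, 0.05 and 0.03 in the pairs. Without isoproterenol replicate 3 it was 0.0042 and without untreated replicate 3 it was 0.10. An antisense RNA shares 8.43% of the exon bases of ADCY6, and another 4.24% of those of ADCY5. Summed per kilobase, both genes together went from 505.9 ± 20.1 to 524.7 ± 14.7 (SD, n = 3), with ranges of 492 to 529 and 513 to 541 that overlapped.

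**Figure D3:**
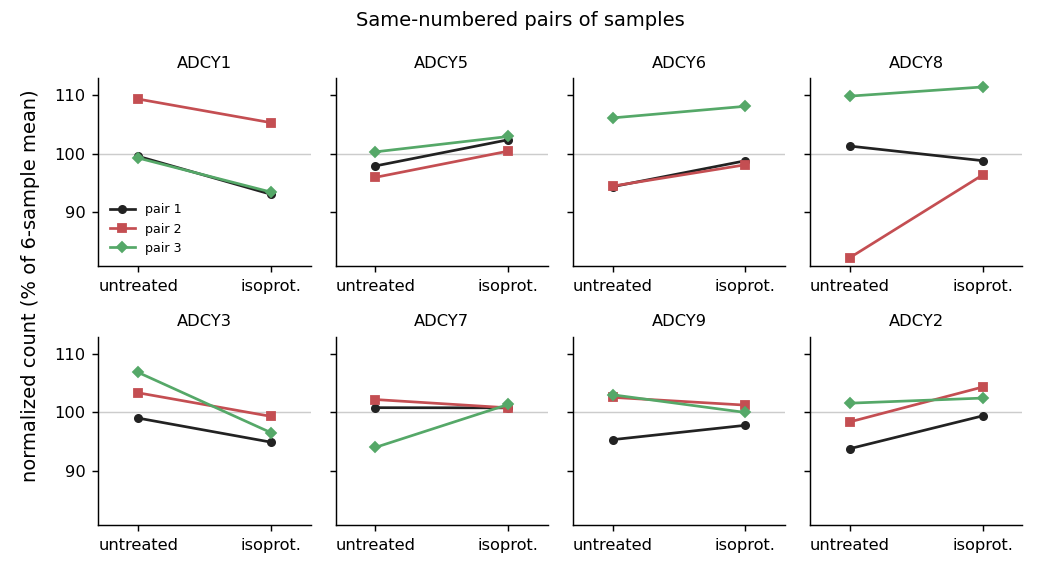
Each cyclase gene in the same-numbered pairs of samples, as a percent of its mean over the 6 samples; a line joins the untreated and the isoproterenol sample of a pair. The lines of ADCY1 and ADCY3 all slope down and those of ADCY5, ADCY6 and ADCY2 all slope up, pair 2 of ADCY8 covers the longest distance, and pair 2 of ADCY1 and pair 3 of ADCY6 lie apart from the other pairs.

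Of the isoforms that Gβγ stimulates once Gαs is active, ADCY2 (ENSG00000078295; chromosome 5, 7396138 to 7830081, plus strand) spans the longest stretch of genome, 433944 bases. It was at 778, 816 and 842 in untreated and at 824, 865 and 849 in isoproterenol samples. It was higher with isoproterenol in each pair, by 0.08, 0.08 and 0.01, and the groups overlapped. The log2 fold change was 0.06 (SE 0.062, 95% interval -0.07 to 0.19; limma adjusted p 0.864), and it was 0.03 without untreated replicate 1 and 0.09 without untreated replicate 3.

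ADCY7 (ENSG00000121281; chromosome 16, 50246137 to 50318135, plus strand), known mostly from blood and immune cells, was at 1290, 1307 and 1203 in untreated and at 1289, 1289 and 1297 in isoproterenol samples. Untreated replicate 3 was the single low value, and the 3 isoproterenol values lay closer together (0.326% of their mean) than the counting error of 2.84% alone would place them. The log2 fold change was 0.03 (SE 0.055, 95% interval -0.09 to 0.14; limma adjusted p 0.935), with pair values of -0.00045, -0.02 and 0.11, and without untreated replicate 3 it was -0.0075. The exons of BRD7 on the opposite strand share 41.8% of the exon bases of ADCY7, the largest such share among the members, and BRD7 was expressed at a similar level (1259, 1181 and 1323 in untreated and 1204, 1204 and 1238 in isoproterenol samples). The level of ADCY7 is uncertain to that extent.

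ADCY9 (ENSG00000162104; chromosome 16, 3953387 to 4116442, minus strand) was nearest to no difference. It was at 1053, 1132 and 1137 in untreated and at 1080, 1118 and 1104 in isoproterenol samples, so that all isoproterenol values lay within the untreated range. The log2 fold change was -0.0083 (SE 0.057, 95% interval -0.13 to 0.11; limma adjusted p 0.984), with 0.04, -0.02 and -0.04 in the pairs.

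Taken as a sum, the isoforms did not differ between the groups by more than their spread: all 8 together were at 1548 ± 29.4 normalized counts per kilobase in untreated and at 1547 ± 29.4 in isoproterenol samples (SD, n = 3). Within that sum the share of ADCY1 was 27.3% ± 1.69 and 25.9% ± 1.62, and that of ADCY5 was 19.5% ± 0.33 and 20.3% ± 0.534. The ratio of ADCY1 to ADCY5 per kilobase, chosen after the values were seen, was 1.36, 1.52 and 1.32 in untreated and 1.21, 1.40 and 1.21 in isoproterenol samples. It was lower in each pair, by log2 ratios of -0.16, -0.12 and -0.12, and the groups overlapped through replicate 2.

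The genes around the cyclases were listed by role. Of 99 listed genes in 5 lists, 89 were in the table and tested, 0 passed FDR 0.05 (limma), and for 11 the p before adjustment was under 0.05. When the block was fitted in limma, 5 rose and 5 fell (11.24%, against 4.88% of all genes), and the median log2 fold change over the 89 was 0.01. With the same block edgeR called 11 of the 89 and DESeq2 called 5, so the calls depend on the tool. For receptors and ligands that act through Gαs, 16 of 22 listed genes were tested and 0 passed in either direction with or without the block.

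Of the 30 regulators of the cyclases, 3 rose and 3 fell with the block. GNAS, which encodes Gαs itself and was the most abundant regulator, went from 131278 ± 11257 to 155712 ± 13744 normalized counts (log2 fold change 0.25, limma adjusted p 0.655, and 1.31e-39 with the block), rising by 0.24, 0.25 and 0.25 in the pairs. Its values overlapped between groups, while the rise within each pair was nearly the same. With 3 pairs, a p this small rests on the spread that limma shares between genes, and not on the number of samples. GNAI1, an inhibitory Gα subunit, fell from 4426 ± 62.9 to 4025 ± 119 (-0.14, block adjusted p 4.05e-04 in limma). RGS2, a regulator of G protein signaling, rose from 603 ± 21.9 to 768 ± 34.3 (0.35, limma adjusted p 0.116, and 7.36e-06 with the block). Calmodulin is the calcium sensor that stimulates ADCY1 and ADCY8. CALM2, which encodes it, fell with the block (-0.13, limma block adjusted p 2.45e-08), while CALM3, at 36453 and 36934, did not pass (0.02, limma block adjusted p 0.595). AKAP6, a scaffold that holds kinase and phosphodiesterase together, rose from 5617 ± 336 to 6373 ± 395 (0.18, limma block adjusted p 3.43e-08).

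Downstream of cAMP, 21 effectors were tested. PRKAR2A, a regulatory subunit of protein kinase A, fell with the block by 0.11 (limma block adjusted p 0.0157). Of 16 phosphodiesterases that degrade cAMP, 1 passed: PDE1C, which calcium and calmodulin activate, rose by 0.18 (limma block adjusted p 0.00722). Among 6 guanylyl cyclases, which make cGMP and are distant relatives of the adenylyl cyclases, GUCY1A1 fell by 0.30 (limma block adjusted p 0.0163), from 378 ± 44.7 to 309 ± 60.2. The members themselves had no call in the limma fits and lay within the spread of these lists.

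**Figure D4:**
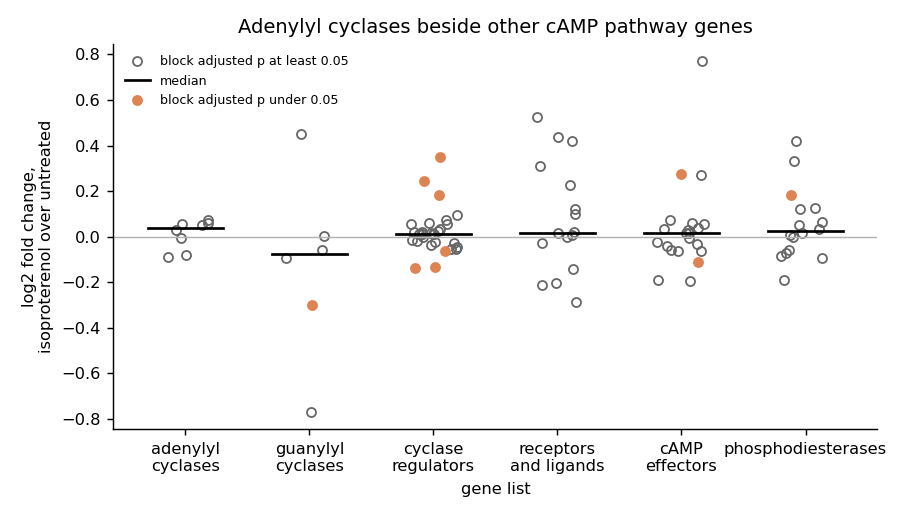
Log2 fold change, isoproterenol over untreated, of each tested gene in the adenylyl cyclase family and in 5 lists of cAMP pathway genes; bars mark the median of a list and filled points passed FDR 0.05 in limma with the replicate block. The 8 cyclases lie between -0.09 and 0.07 with no filled point, and the regulators hold 6 filled points.

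The genes whose pattern over the 6 samples was nearest to that of ADCY1, the member with the highest count, were PABPC1, GPRIN1 and RPS4X. Their centred log2 levels differed from those of ADCY1 by a root mean square of 0.017, 0.017 and 0.018, against a median of 0.11 over the 11586 genes compared. They were picked as the nearest of these genes, so a value below the median was fixed by the choice. PABPC1, for example, was at 6930, 7529 and 6834 in untreated and at 6535, 7118 and 6507 in isoproterenol samples, with the same high replicate 2. The likeness is a description over 6 samples, which share depth and library for all genes.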

How the data were processed

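Poly(A) RNA from 6 samples was made into libraries with a directional kit (per the labels), aligned to GRCh38 with STAR and counted per gene with featureCounts by the authors; tool versions, annotation release and strand setting are not given in the sources used here. The deposited signal is the read count of a gene divided by 1 DESeq2 size factor per sample. Every value above 0 was a whole multiple of its sample's step (tolerance 0.01), which gave back whole reads. Groups and replicate numbers came from the sample titles. Genes with more than 5 reads in at least 4 samples were kept (18130 of 19823). The main test was limma 3.58.1 (trend, robust) in R 4.3.3 on log2(normalized count + 1), two-sided, with treatment alone and Benjamini-Hochberg adjustment over all genes at 0.05; fold changes are on that scale and are understated for low genes. Alternatives were a replicate block, edgeR 4.0.16 and DESeq2 1.42.0 on recovered reads, TMM and total-count scaling, a pseudocount of 5, no filter, a mean of at least 50, and each sample left out. Tests were tried on simulated data. After subtracting group means, the correlation between samples of equal number was 0.269, 0.493 and 0.388 for the 3 pairs (11587 genes), so the numbers, which the labels give, were taken to pair the samples. Lengths, exons and overlaps came from GENCODE release 44, which held 99.59% of the gene identifiers. Named genes are the members, genes of the pathway lists past FDR 0.05 with or without the block, the 3 most abundant regulators and the 3 genes most like ADCY1; listed genes absent from the table were not analysed here, and 2 genes that the rule names are not reported here. The members, lists and tests were chosen with earlier results of these data known.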

Additional observations from a re-analysis of the deposited data

How the results depend on the processing

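Over 16 alternative fits for each of the 8 members (128 values), 122 kept their direction and their side of FDR 0.05, 5 changed sign and 1 passed the threshold. That 1 was ADCY1 in edgeR with the replicate block (members passing, 1 in place of 0; log2 fold change -0.08). With 1 sample left out, ADCY8 ran from -0.048 to 0.16, ADCY7 from -0.0075 to 0.052 and ADCY9 from -0.044 to 0.011, and the sign changes came from these: ADCY8 was at -0.048 without untreated replicate 2, ADCY7 at -0.0075 without untreated replicate 3, and ADCY9 at 0.0082, 0.011 and 0.0053 without untreated replicate 2, untreated replicate 3 and isoproterenol replicate 1. With 1 sample left out the members' count stayed at 0. Of the 89 pathway genes, 0 passed in the main fit, 10 with the replicate block, 11 in edgeR with the block, 1 in DESeq2 and 5 in DESeq2 with the block; with 1 sample left out the count ran from 0 to 2, the latter without isoproterenol replicate 2. Over all genes 3 passed, against 885 with the replicate block, 977 in edgeR with the block, 21 in DESeq2 and 143 in DESeq2 with the block, and 2 to 70 with 1 sample left out, the 70 again without isoproterenol replicate 2. TMM scaling, total-count scaling, a pseudocount of 5 and no filter changed no member's call. The order of levels kept 6 of 8 ranks by longest transcript, 4 by longest coding sequence and 3 with no length. The 7 neighbouring pairs in that order were set by the same samples. Of these pairs, 5 passed over the 6 samples per kilobase of all annotated exon bases, the only length tested. Over the 3 means of same-numbered samples, an alternative chosen after seeing the data, 0 passed. The replicate block in limma changed no member's call. The cause of these shifts was not tested. With 3 samples a group, changes of a few percent lay within the error of every member, and counting error alone was 1.34% to 3.73%.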
